A study of Mus musculus with 2 samples.

Results

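S-phase CIC::DUX4 tumor nuclei are nuclei that carry the transcripts of the fusion gene's target program together with transcripts of DNA replication. They were taken from single-nucleus RNA sequencing of dFLEx CDS mouse tumors. In this model, Cre and FLP recombinase plasmids electroporated into the hind limb turn on a CIC::DUX4 transgene driven by the CAG promoter. The labels give the untreated group as dFLEx CDS +/- tumors with no drug (n = 4 tumors). The other group received Minnelide, the water-soluble prodrug of triptolide, at 0.42 mg/kg for 21 days (n = 4 tumors), and its label gives no genotype. According to the study's text, the sequenced tumors were taken from animals with a favorable or a poor response, so the group may mix both. The labels do not give the response of a tumor, and the group was not divided. Sex and age are not in the labels of either group. Each count matrix was treated as 1 tumor, and tumor numbers follow file order and pair no tumors.

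A nucleus was chosen when it held at least 1000 UMIs (unique molecular identifiers, which count captured transcripts) with under 5% from mitochondrial genes and met 3 limits on sums of gene counts per 10,000 of its UMIs. The sum of Etv1, Etv4, Etv5, Shc3 and Shc4, which are targets of CIC::DUX4 (T), had to reach 80. The sum of Mcm3, Mcm5, Mcm6, Clspn, Dtl, Atad2, Brip1, Rrm2, Pole and Exo1 (S) had to reach 15 with at least 3 of these genes detected. The sum of Top2a, Mki67, Cenpf, Cenpe, Kif11, Aspm, Tpx2, Ccnb2, Anln and Bub1 (G) had to stay under 20. Of 72338 deposited nuclei, 60121 passed the UMI and mitochondrial limits, 38492 of these reached the T limit and are called tumor nuclei here, and 2895 were S-phase nuclei. Another 5401 tumor nuclei had a G of at least 20 and are called G2/M nuclei, and the remaining 30196 are called noncycling nuclei. The state of a nucleus was read from transcripts alone, since DNA content was not measured.

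In S phase a cell copies its genome once. Origins are licensed in G1 when ORC, CDC6 and CDT1 load the MCM helicase, and they fire when CDC45 and the GINS complex join it. DNA polymerase alpha with primase starts each strand, polymerases delta and epsilon extend it on the PCNA clamp, and LIG1 joins the fragments. Genes of this machinery are targets of the E2F transcription factors, which the retinoblastoma proteins hold back until cyclin-dependent kinases release them. CIC is a repressor of ETS-family and ERK-feedback genes, and its fusion to DUX4 makes it an activator of them. Triptolide binds the XPB subunit of TFIIH and blocks transcription by RNA polymerase II.

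The S-phase nuclei numbered 34, 244, 235 and 288 in untreated tumors 1 to 4 and 991, 127, 534 and 442 in Minnelide tumors 1 to 4. Minnelide tumor 1 alone supplied 34.2% of them. Their median depth was 3252 UMIs, and the summed counts per tumor ranged from 183860 UMIs in untreated tumor 1 to 4462711 in Minnelide tumor 1. Untreated tumor 1 stood apart, with the fewest S-phase nuclei and with 0.207% of their UMIs on 8 endothelial marker genes against 0.0324% to 0.0689% in the other tumors. Untreated tumor 4 was shallow, with a median of 883 UMIs over its deposited nuclei. In 4 of 28 pairs of tumors 49 to 132 nucleus barcodes were shared. Each of these pairs joined an untreated and a Minnelide tumor of the same number in file order, and 0 barcodes were shared within a group. The source of this pattern was not tested, and it was not read as a pairing of animals. A barcode seen in another tumor belonged to 34 S-phase nuclei, and 0 barcodes were shared between S-phase nuclei of different tumors. The labels give no run, so run and treatment cannot be told apart.

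The values that chose the nuclei lay close to their limits. S had a median of 19.5 and a range of 15 to 79.8 per 10,000 UMIs, and 740 nuclei lay between 15 and 17 while 1012 tumor nuclei just outside lay between 13 and 15. Exactly 3 of the 10 S genes were detected in 956 S-phase nuclei (33.0%). In 741 tumor nuclei with a G under 20 the S sum reached 15 with only 2 S genes detected. These were counted as noncycling. T had a median of 136, with 129 nuclei between 80 and 90 and 89 nuclei that met the other limits between 70 and 80. G had a median of 8.51, with 526 nuclei between 15 and 20 and 359 nuclei with a high S between 20 and 25, and it was 0 in 333 S-phase nuclei. A further 878 tumor nuclei had both a high S and a G of at least 20 and were counted as G2/M. A nucleus with 3 UMIs of S genes sits exactly at the S limit at 2000 UMIs, so deeper nuclei needed more such UMIs, while in shallower nuclei the need for 3 genes was the stricter term. Of the S-phase nuclei 515 (17.8%) held under 2000 UMIs.

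Among the 10 S genes, Atad2, a chromatin ATPase of replicating cells, was detected in 90.6% of the S-phase nuclei against 50.8% of the noncycling nuclei. Dtl, which directs the destruction of CDT1 during replication, was detected in 71.0% against 29.9%. The helicase Brip1 was seen in 50.1% against 18.6% and the checkpoint mediator Clspn in 48.6% against 17.7%. The helicase subunits Mcm3 and Mcm5 were seen in 27.4% and 14.8% of the S-phase nuclei against 13.4% and 6.62%. Median depth per tumor was 1844 to 4562 UMIs in S-phase and 1584 to 4963 UMIs in noncycling nuclei. All 10 genes belong to the rule, so these values describe the choice of nuclei. The markers Mcm3, Mcm5, Clspn, Dtl, Atad2 and Brip1 are among them and give no separate check of the label. Genes outside the rule follow, but they were compared between nuclei split by S and G. They describe the label and are no independent test of it.

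The first question was how large the S-phase share of the tumor nuclei was in each tumor. It was 0.994% in untreated tumor 1 (exact 95% interval 0.689% to 1.39%), 6.82% in tumor 2 (6.01% to 7.69%), 6.57% in tumor 3 (5.78% to 7.43%) and 8.32% in tumor 4 (7.42% to 9.29%). In Minnelide tumors 1 to 4 it was 10.3% (9.70% to 10.9%), 4.58% (3.83% to 5.42%), 6.39% (5.87% to 6.93%) and 12.0% (10.9% to 13.04%). The intervals cover counting error only. Both groups overlapped, since Minnelide tumors 2 and 3 lay below untreated tumors 2 to 4. The group means were 5.67% ± 3.22 (SD, n = 4) without and 8.31% ± 3.41 (SD, n = 4) with Minnelide, a difference of 2.63 percentage points with a two-sided exact permutation p of 0.371 (0.743 adjusted over 4 values). The smallest p that 4 against 4 tumors allow is 0.0286. Without untreated tumor 1 the difference was 1.07 percentage points (exact permutation p = 0.629). With each nucleus thinned to 2000 UMIs, which left out 4974 untreated and 3162 Minnelide tumor nuclei, the means were 8.53% and 10.5% (exact permutation p = 0.629). With an S of at least 25 they were 1.68% and 1.71% (exact permutation p = 0.971). Among nuclei with a T under 80 the same S and G limits were met by 0.430% to 5.31% per tumor.

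**Figure D1:**
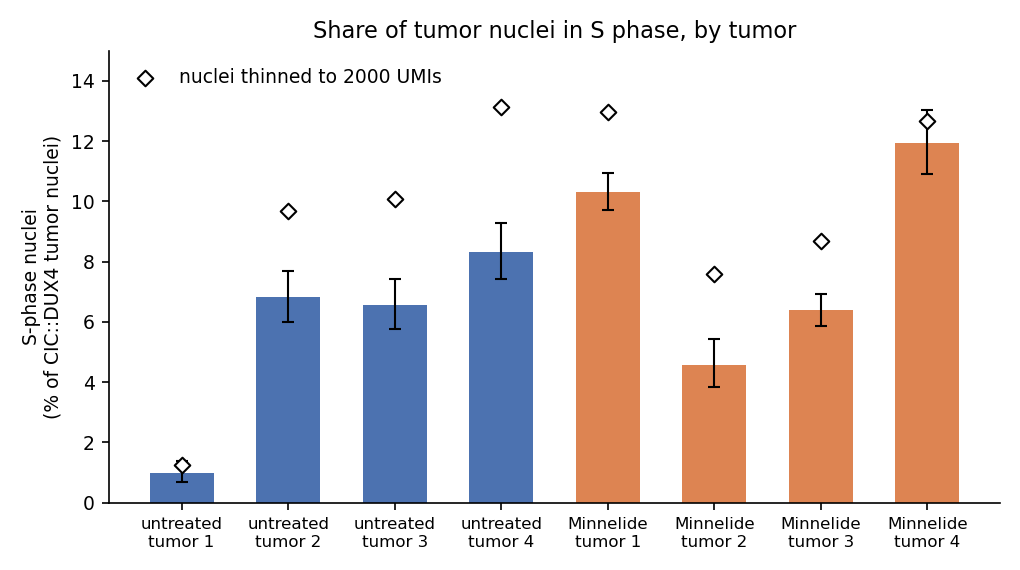
S-phase nuclei as a percentage of the CIC::DUX4 tumor nuclei in each of the 8 tumors (bars), with exact 95% binomial intervals for counting error (lines) and the share after each nucleus was thinned to 2000 UMIs (diamonds). Untreated tumor 1 lies at 0.994% and the other 7 tumors lie between 4.58% and 12.0%, with both groups overlapping.

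S-phase nuclei were set against all cycling nuclei next, the sum of S-phase and G2/M nuclei. The S-phase share of cycling nuclei was 28.3%, 38.1%, 34.9% and 41.2% in untreated tumors 1 to 4 and 36.9%, 39.7%, 25.6% and 41.3% in Minnelide tumors 1 to 4. Untreated tumor 1 and Minnelide tumor 3 were lowest, with 2.53 and 2.91 G2/M nuclei for each S-phase nucleus. Their means were 35.6% ± 5.50 (SD, n = 4) without and 35.9% ± 7.12 (SD, n = 4) with Minnelide (exact permutation p = 0.943). The share of tumor nuclei called S-phase or G2/M averaged 15.1% ± 7.79 (SD, n = 4) without and 23.3% ± 8.04 (SD, n = 4) with Minnelide (exact permutation p = 0.200). Values per tumor were 3.51%, 17.9%, 18.8% and 20.2% in the untreated and 27.9%, 11.5%, 24.99% and 28.9% in the Minnelide group. Minnelide tumor 2 was low among its group for this share, and without it the difference was 12.2 percentage points (exact permutation p = 0.0286, the smallest that 3 against 4 tumors can give). Without untreated tumor 1, the lowest of its group, the difference was 4.36 percentage points (exact permutation p = 0.400). These removals were tried after the data were seen, as was the test of this share. The share counts nuclei past the S and G limits and is no measure of division. Nuclei called noncycling had a median G of 4.74 to 7.98, except in untreated tumor 1 (0.755), and S-phase nuclei one of 6.32 to 9.35.

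Median depth per S-phase nucleus was 4562, 3240, 2823 and 1844 UMIs in untreated tumors 1 to 4 and 3992, 2653, 3418 and 2861 UMIs in Minnelide tumors 1 to 4. Untreated tumors 1 and 4 held the highest and the lowest value. Group means stood at 3117 ± 1127 (SD, n = 4) without and 3231 ± 601.5 (SD, n = 4) with the drug (exact permutation p = 0.857). Thinned to 1000 UMIs, an S-phase nucleus showed a median of 767.4 ± 21.0 (SD, n = 4) genes without and 751.6 ± 11.4 (SD, n = 4) genes with Minnelide (exact permutation p = 0.286). Compared with noncycling nuclei of the same tumor, S-phase nuclei had the higher median UMI count in 3 of 8 tumors, the higher mitochondrial share in 3 of 8 and the higher T in 5 of 8.

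Genes that the rule did not use were then compared between S-phase and noncycling nuclei of the same tumor, as a ratio of counts scaled to 1000000 UMIs (CPM) after adding 1 CPM. Members were chosen by expression in these nuclei, so the ratios are a description and carry no test. Of 7300 genes with at least 20 CPM in either state on average, 101 (1.38%) were higher in 8 of 8 tumors with a median fold of at least 1.5, the 10 S genes included, and 115 (1.58%) were lower. At any fold 506 genes (6.93%) were higher and 511 (7.0%) were lower in 8 of 8 tumors. Outside the rule and at no less than 50 CPM in S phase, the 15 genes furthest above the noncycling level worked mostly in DNA replication, its repair, the E2F circuit and the kinetochore, namely Pclaf, Ccne2, Lig1, Pola1, Zgrf1, Uhrf1, Brca1, Kntc1, Prim2, Ncapg2, E2f7, Zfp367, Cenpk, Cenph and Rad54b, with median folds from 2.38 down to 1.92. Untreated tumor 1 gave the largest ratio of the replication lists described below, and its noncycling nuclei held few S transcripts, with a median S of 1.32 against 4.48 to 7.25 in the other tumors.

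Origin licensing and firing genes were the first group. Of 26 listed genes 23 passed the level filter and 14 were higher in 8 of 8 tumors, against 6.93% of all genes, with 0 lower and a median fold of 1.49. The list median per tumor lay between 0.32 and 0.77 on the log2 scale in the other 7 tumors and at 2.03 in untreated tumor 1. The firing factors Cdc45 and Mcm10 stood at 2.33-fold and 2.27-fold. The loading factor Cdc6 stood at 2.11-fold and Cdt1 at 1.76-fold, the latter higher in 7 of 8 tumors. Of the helicase subunits outside the rule Mcm2 and Mcm7 were 1.60-fold and 1.36-fold higher in 8 of 8 tumors, and Mcm4 was 1.47-fold higher in 7 of 8. The origin recognition subunits Orc1 and Orc6 were 1.59-fold and 1.55-fold higher in 8 of 8 tumors, whereas Orc3, Orc4 and Orc5 stood at 1.04-fold, 0.993-fold and 1.09-fold and were not higher in every tumor.

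Genes of the replication fork were the next group. Of 28 listed genes 22 passed the filter, 16 were higher in 8 of 8 tumors, 0 were lower and the median fold was 1.55. Pola1, the catalytic subunit of polymerase alpha, is given here for each tumor. It was at 701.6, 603.2, 602.0 and 499.6 CPM in the S-phase nuclei of untreated tumors 1 to 4 and at 579.2, 683.0, 591.1 and 541.0 CPM in Minnelide tumors 1 to 4. In noncycling nuclei Pola1 was at 138.6, 250.4, 265.6 and 323.9 CPM and at 338.3, 275.4, 297.4 and 275.4 CPM. The 8 S-phase values did not overlap the 8 noncycling values. The ligase Lig1 averaged 111.7 CPM in S-phase and 46.4 CPM in noncycling nuclei, a median fold of 2.16. The primase subunits Prim2 and Prim1 were 2.02-fold and 1.71-fold higher, the flap nuclease-helicase Dna2 was 1.79-fold higher and the clamp Pcna was 1.70-fold higher, each in 8 of 8 tumors. Pcna ranged from 23.1 CPM in Minnelide tumor 2 to 125.1 CPM in untreated tumor 1.

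Nucleotide synthesis genes showed a smaller median fold of 1.34. Of 20 listed genes 16 passed, and 8 were higher in 8 of 8 tumors with 0 lower. These included Tyms at 1.79-fold, which makes thymidylate, and the kinase Dck at 1.67-fold. Rrm1, the partner of the rule gene Rrm2 in ribonucleotide reductase, was 1.48-fold higher. The purine synthesis genes Gart and Atic stood at 1.04-fold and 1.06-fold and were higher in 4 and 5 of 8 tumors.

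Chromatin copying genes had 12 of 14 members past the filter and 11 of these higher in 8 of 8 tumors, with a median fold of 1.55. Uhrf1 and Dnmt1, which copy DNA methylation onto the new strand, were 2.05-fold and 1.54-fold higher. The histone chaperone subunits Chaf1a and Chaf1b were 1.60-fold and 1.52-fold higher, and the remodeler Hells was 1.62-fold higher. Ezh2, which places the repressive mark on histone H3, averaged 528.2 CPM in S-phase and 326.2 CPM in noncycling nuclei.

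Homologous recombination and Fanconi genes were the list with the most genes higher in 8 of 8 tumors, 21 of the 26 that passed out of 32 listed, with 0 lower and a median fold of 1.54. Brca1 was at 142.3 to 166.9 CPM in the S-phase nuclei of the 8 tumors and at 17.3 to 93.5 CPM in noncycling nuclei, without overlap. Its partner Bard1 was 1.84-fold higher and Brca2 was 1.58-fold higher. Fanci and Fancd2, which form the clamp of the Fanconi pathway, were 2.02-fold and 1.72-fold higher, whereas Fancc stood at 0.974-fold. Mismatch and other repair genes had a median fold of 1.21, with 6 of its 15 members higher in 8 of 8 tumors. The replication checkpoint list had a median fold of 1.13, with 4 of the 11 that passed higher in 8 of 8 tumors. Its kinases Atr and Chek1 stood at 1.00-fold and 1.13-fold.

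The E2F and cyclin list held genes on both sides of the noncycling level. Cyclin E2 (Ccne2) and cyclin E1 (Ccne1), which start S phase with Cdk2, were 2.37-fold and 1.58-fold higher in 8 of 8 tumors. E2f1 and E2f2, which activate E2F targets, were 1.69-fold and 2.19-fold higher, and E2f7, which represses them, was 1.98-fold higher. Below the noncycling level, the D-cyclin Ccnd3, its kinase Cdk6 and E2f5, stood at 0.704-fold, 0.416-fold and 0.649-fold and were lower in 8 of 8 tumors. Ccnd1 and Ccnd2 stood at 1.05-fold and 0.990-fold and Cdk4 at 1.15-fold, with no common direction over the tumors. The retinoblastoma gene Rb1 stood at 0.989-fold. Of the 22 list members that passed the filter, 11 were higher and 2 were lower in 8 of 8 tumors, and E2f5 was below the filter.

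**Figure D2:**
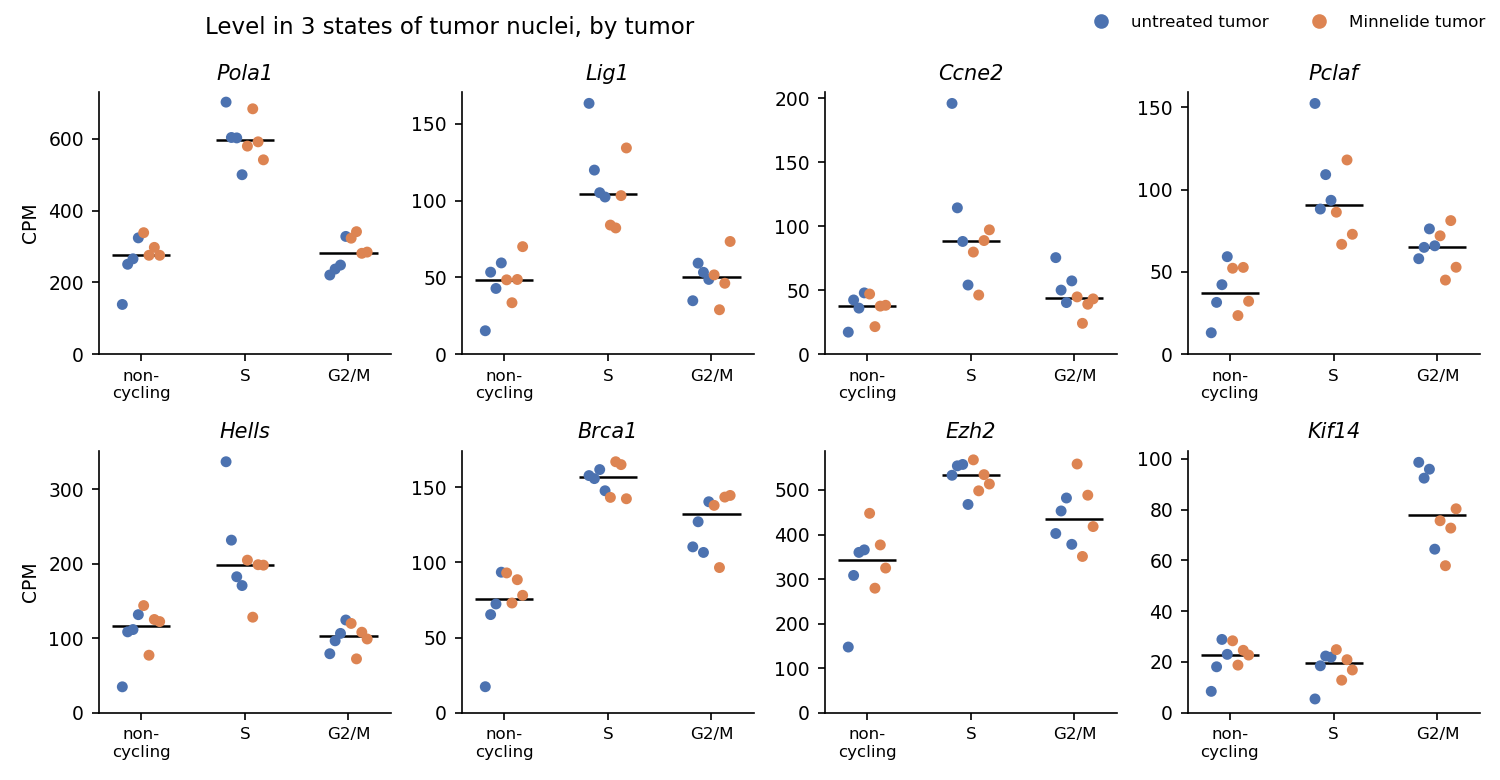
Level of 8 genes in noncycling, S-phase and G2/M nuclei in CPM on linear axes that start at 0, with 1 point per tumor and state and the median over 8 tumors as a line. For Pola1 the S-phase points (499.6 to 701.6 CPM) lie above all noncycling points (138.6 to 338.3 CPM), while for Kif14 only the G2/M points (57.9 to 98.7 CPM) are raised.

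The starts of these genes were read in GRCm39, the build of the counts, from GENCODE release M39. The 250 bases before the start of the canonical transcript were searched on both strands for the E2F consensus in its 4 spellings, TTTCCCGC, TTTCGCGC, TTTGCCGC and TTTGGCGC. A match was found in 443 of 18940 protein-coding genes counted (2.34%), in 3 of the 10 S genes and in 3 of the 15 genes named above as furthest over the noncycling level (Pola1, Ncapg2 and E2f7). The CCAAT box (letters CCAAT, either strand) was found in 9 of the 10 S genes and in 35.8% of all these genes. It was not particular to the S genes, with 6 of the 10 G genes and 4 of the 5 T genes holding it. Among the lists outside the rule it was found in 14 of 26 licensing genes and 8 of 28 fork genes. A match describes the letters and not a bound site. The windows of Mcm5, with 2 overlapping matches, and of Pola1, with 1, show the motif in a gene of the rule and in a gene outside it. Those of Uhrf1 and Pclaf, which were 2.05-fold and 2.38-fold higher, hold none of the 4 spellings. Capitals mark the matches, and each sequence reads 5′ to 3′ on the strand of its gene.
Mcm5, plus strand, chr8:75835890-75836139: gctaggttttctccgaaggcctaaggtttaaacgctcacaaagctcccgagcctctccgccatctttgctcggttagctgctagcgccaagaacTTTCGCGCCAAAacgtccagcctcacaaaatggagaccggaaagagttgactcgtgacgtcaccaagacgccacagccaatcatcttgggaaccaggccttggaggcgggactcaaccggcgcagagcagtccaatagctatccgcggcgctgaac
Pola1, minus strand, chrX:92675814-92676063: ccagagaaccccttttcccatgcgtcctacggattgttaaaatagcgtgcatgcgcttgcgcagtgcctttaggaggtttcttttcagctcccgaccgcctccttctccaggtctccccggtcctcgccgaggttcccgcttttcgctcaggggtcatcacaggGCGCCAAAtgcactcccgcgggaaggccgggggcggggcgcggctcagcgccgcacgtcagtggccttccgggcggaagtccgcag
Uhrf1, plus strand, chr17:56610025-56610274: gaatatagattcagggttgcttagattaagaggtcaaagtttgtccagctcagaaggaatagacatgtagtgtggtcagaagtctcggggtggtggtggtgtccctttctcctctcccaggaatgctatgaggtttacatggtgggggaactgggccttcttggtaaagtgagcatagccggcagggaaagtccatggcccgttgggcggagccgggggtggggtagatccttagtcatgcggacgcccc
Pclaf, plus strand, chr9:65797269-65797518: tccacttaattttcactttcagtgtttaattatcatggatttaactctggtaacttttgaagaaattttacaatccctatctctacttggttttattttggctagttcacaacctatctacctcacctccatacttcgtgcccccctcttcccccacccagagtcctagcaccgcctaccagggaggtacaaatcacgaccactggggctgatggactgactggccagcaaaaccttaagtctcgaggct

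The 10 genes furthest below the noncycling level, among those with at least 50 CPM in noncycling nuclei and outside the rule, belonged to none of the lists of replication and repair genes. They were Csmd1, Akap6, Dab2, Itgbl1, Glis3, Peli2, Syne1, Fap, Rapgef4 and Pparg, with median folds from 0.364 to 0.504. Fap is a protease of activated fibroblasts, Pparg is the adipocyte nuclear receptor and Dab2 is an endocytic adaptor. Csmd1 was at 10.8 to 99.3 CPM in S-phase and at 41.6 to 289.7 CPM in noncycling nuclei, with overlap between tumors. Lower genes depended on the T limit. At a T of at least 120, a limit tried after the data were seen, 32 genes in place of 115 were lower in 8 of 8 tumors by at least 1.5-fold, 24 of them shared, and 5 of the 10 named genes stayed lower in all 8. The 15 named higher genes were higher in 8 of 8 tumors at that limit, with median folds of 1.71 to 2.25.

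Markers of other cell types were summed as shares of the UMIs in S-phase and noncycling nuclei. The 8 endothelial markers had a median fold of 0.803 and summed to less in 7 of 8 tumors. The summed 6 macrophage markers were lower in 8 of 8 tumors, at 0.00708% to 0.0370% of UMIs in S-phase and 0.00930% to 0.0712% in noncycling nuclei. The 8 myocyte markers summed to 0.0469% to 0.530% and 0.0457% to 1.18%, lower in 7 of 8. The 6 fibroblast markers summed to 0.140% to 0.578% and 0.119% to 0.540%, and the 4 pericyte markers to 0.0349% to 0.0669% and 0.0213% to 0.0614%, higher in S-phase nuclei in 5 and 6 of 8 tumors. The T/NK markers reached at most 0.00109% of the UMIs in S-phase nuclei and were at 0 in Minnelide tumor 4. Among single markers Nkg7 was at 0 in the S-phase nuclei of 8 of 8 tumors. The part of these cell types in the lower genes was not tested.

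Genes of the fusion program were set beside the noncycling level next. Etv1, Etv4, Etv5, Shc3 and Shc4 stood at 0.990-fold to 1.09-fold. Both states had to reach the same lower limit of T, so these ratios describe the nuclei as chosen. Of 11 further CIC::DUX4 activity genes 9 passed the filter, 0 were higher or lower in 8 of 8 tumors and the median fold was 1.05. On the log2 scale the list median reached 0.60 in untreated tumor 1, while the other 7 tumors ranged from -0.01 to 0.17. Vgf was at 892.6 to 3825 CPM and Muc5ac at 190.4 to 4025 CPM in the S-phase nuclei. The low Muc5ac value belonged to untreated tumor 1, and the other 7 tumors held at least 1543 CPM. Between tumors Etv4 ranged from 2095 CPM in Minnelide tumor 2 to 4155 CPM in untreated tumor 4. Lists of p53 targets and of RNA polymerase II and TFIIH genes had median folds of 0.987 and 0.974 with 0 genes in a common direction.

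**Figure D3:**
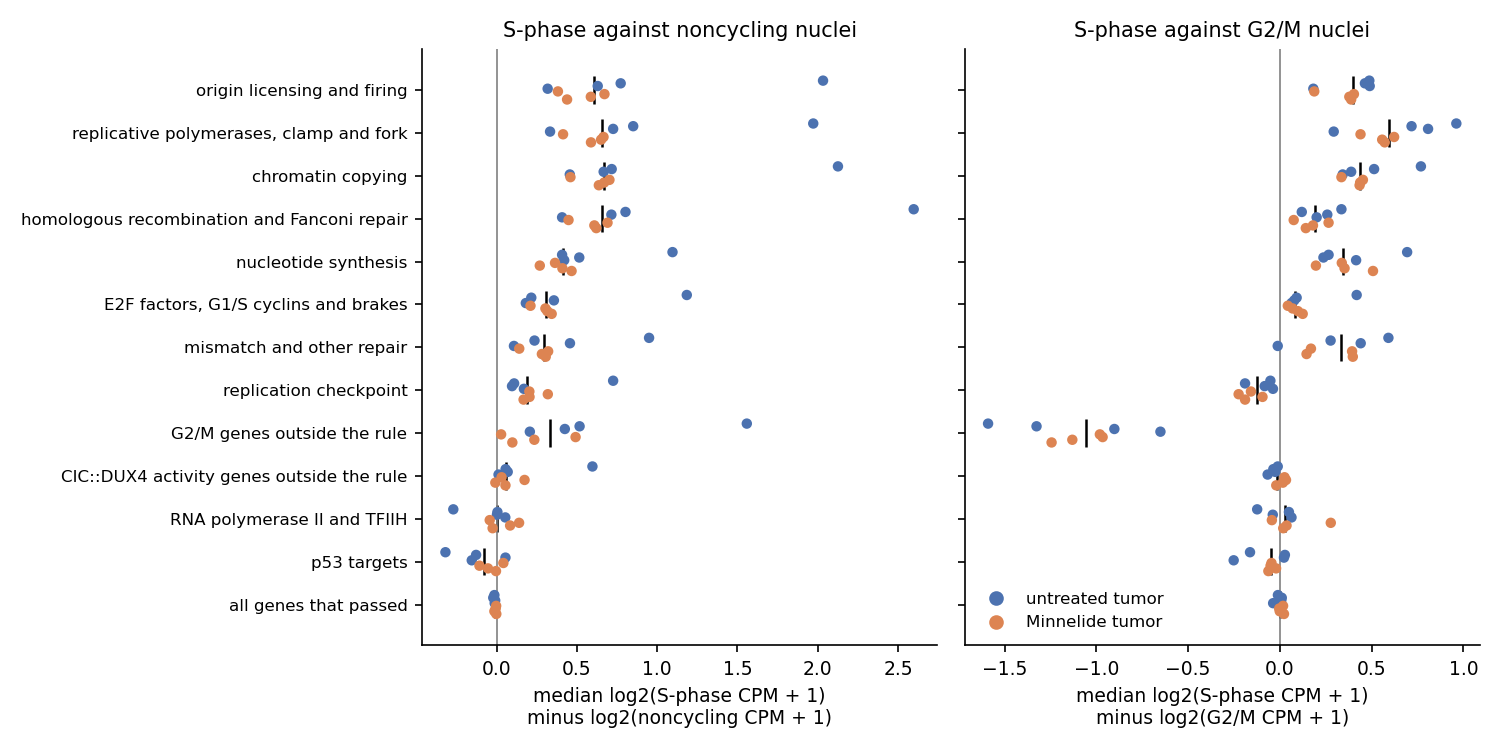
Median difference of log2(CPM + 1) over the genes of each list that passed the filter, S-phase minus noncycling nuclei (left) and S-phase minus G2/M nuclei (right), with 1 point per tumor and the median of the 8 tumors as a line. Replication and repair lists lie above 0 in 8 of 8 tumors on the left, with untreated tumor 1 furthest right, and the G2/M genes outside the rule lie below 0 in 8 of 8 tumors on the right.

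S-phase nuclei were compared with G2/M nuclei of the same tumor in the same way. Of 7228 genes that passed, 39 (0.540%) were higher and 107 (1.48%) lower in 8 of 8 tumors by a median of at least 1.5-fold, the rule's genes included. At any fold 282 genes (3.90%) were higher and 260 (3.60%) lower. Outside the rule the genes furthest above the G2/M level included Pola1 (2.05-fold), Lig1 (2.04-fold), Prim2 (1.81-fold), Chaf1b (1.81-fold), Hells (1.80-fold), Zfp367 (1.74-fold) and the WNT ligand Wnt5b (1.69-fold). The fork list had 13 of 22 genes higher in 8 of 8 tumors and a median fold of 1.46, and the licensing list had 11 of 23 and 1.33. Homologous recombination genes were less separated from G2/M, with 5 of 28 higher in 8 of 8 tumors and a median fold of 1.12. Brca1 and Fanci stood at 1.19-fold and 1.05-fold of the G2/M level. The replication checkpoint list went the other way, with a median fold of 0.911 and a list median below the G2/M level in 8 of 8 tumors. Of its 11 genes that passed, 1 was higher and 2 were lower in 8 of 8 tumors.

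Mitotic genes outside the rule separated the states in the other direction. Of 35 that passed, 29 were lower in S-phase than in G2/M nuclei in 8 of 8 tumors, with a median fold of 0.451. The kinesins Kif14 and Kif23 stood at 0.238-fold and 0.317-fold, the spindle factor Hmmr at 0.275-fold, the microtubule bundler Prc1 at 0.333-fold and the phosphatase Cdc25c at 0.303-fold. Cyclin A2 (Ccna2) was at 0.492-fold. Kif14 was at 5.44 to 24.9 CPM in S-phase, 8.43 to 28.9 CPM in noncycling and 57.9 to 98.7 CPM in G2/M nuclei, so that its S-phase and noncycling values overlapped and its G2/M values stood above both. The same list was 1.32-fold higher in S-phase than in noncycling nuclei at the median, with 12 of 30 genes higher in 8 of 8 tumors. Untreated tumor 1 stood highest in this contrast, at 1.56 on the log2 scale against 0.03 to 0.52 in the other tumors.

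Gene expression in S-phase nuclei was then compared between Minnelide and untreated tumors, on counts summed per tumor. The question was how the transcripts of replicating tumor cells differed after 21 days of the drug. edgeR's quasi-likelihood test called 0 of 8365 genes (0% of those tested) at a Benjamini-Hochberg adjusted p under 0.05, and the smallest adjusted p was 0.641. Without adjustment 431 genes had a p under 0.05, 187 higher and 244 lower with Minnelide. DESeq2 called 1 gene, Irf4. On counts of 8466 genes simulated for this comparison edgeR recovered 59.8% of genes changed 2-fold and 100% of genes changed 4-fold. The simulation gave every gene the same spread between tumors and not the spread of these tumors. Its rates need not hold here, and 0 calls do not exclude changes of this size. For noncycling nuclei edgeR's count was 0 of 13097 genes (0%), with 964 under 0.05 before adjustment, while DESeq2 called 56, 4 higher and 52 lower.

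The 5 genes of smallest p in each direction are given as values, none of them called. CPM did not overlap between the groups for any of the 10, as for 331 of the 8365 genes tested (3.96%). Lrpap1, a chaperone of LDL receptor family proteins, was at 32.6, 39.2, 23.7 and 32.1 CPM in untreated tumors 1 to 4 and at 65.7, 64.2, 51.1 and 65.4 CPM in Minnelide tumors 1 to 4. Its log2 difference was 1.00 ± 0.21 (SE), with an edgeR adjusted p of 0.924. The neuronal ubiquitin ligase Trim9 was at 625.5, 550.9, 410.1 and 534.7 CPM and at 693.5, 1248, 1023 and 799.4 CPM, a log2 difference of 0.91 ± 0.23 (SE). The hedgehog-receptor-like gene Ptchd4 differed by 1.40 ± 0.34 (SE), the toll-like receptor partner Tril by 1.01 ± 0.26 (SE) and the microfibril gene Fbn1 by 0.49 ± 0.13 (SE) on the log2 scale. All Minnelide tumors lay above all untreated tumors for these genes.

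Among the lower values Irf4, a lymphoid and melanocytic transcription factor, was at 136.0, 15.2, 26.3 and 21.9 CPM in untreated and at 3.14, 0, 1.86 and 3.37 CPM in Minnelide tumors. The log2 difference was -3.79 ± 0.75 (SE), with an edgeR adjusted p of 0.924 and a DESeq2 adjusted p of 8.36e-04. In untreated tumor 1 the value rests on 25 UMIs in 10 of 34 nuclei. Irf4 was also among the 5 named genes of smallest p that were lower with Minnelide in noncycling nuclei. There edgeR did not call it in the main setting, and it passed the threshold in 1 alternative. Errfi1, an inhibitor of the EGF receptor, was at 179.5, 67.5, 74.9 and 112.5 CPM and at 33.2, 56.5, 27.4 and 19.6 CPM, a log2 difference of -1.61 ± 0.37 (SE). Cadps, a factor of dense-core vesicle release, differed by -3.45 ± 0.76 (SE) and was at 0 in Minnelide tumor 3. Zbtb2 and the GDNF receptor Gfra1 differed by -1.48 ± 0.32 (SE) and -1.59 ± 0.36 (SE). All untreated tumors lay above all Minnelide tumors for these 5 genes. Each of the 10 genes kept its direction without untreated tumor 1, which the lack of overlap between the groups all but fixed in advance.

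**Figure D4:**
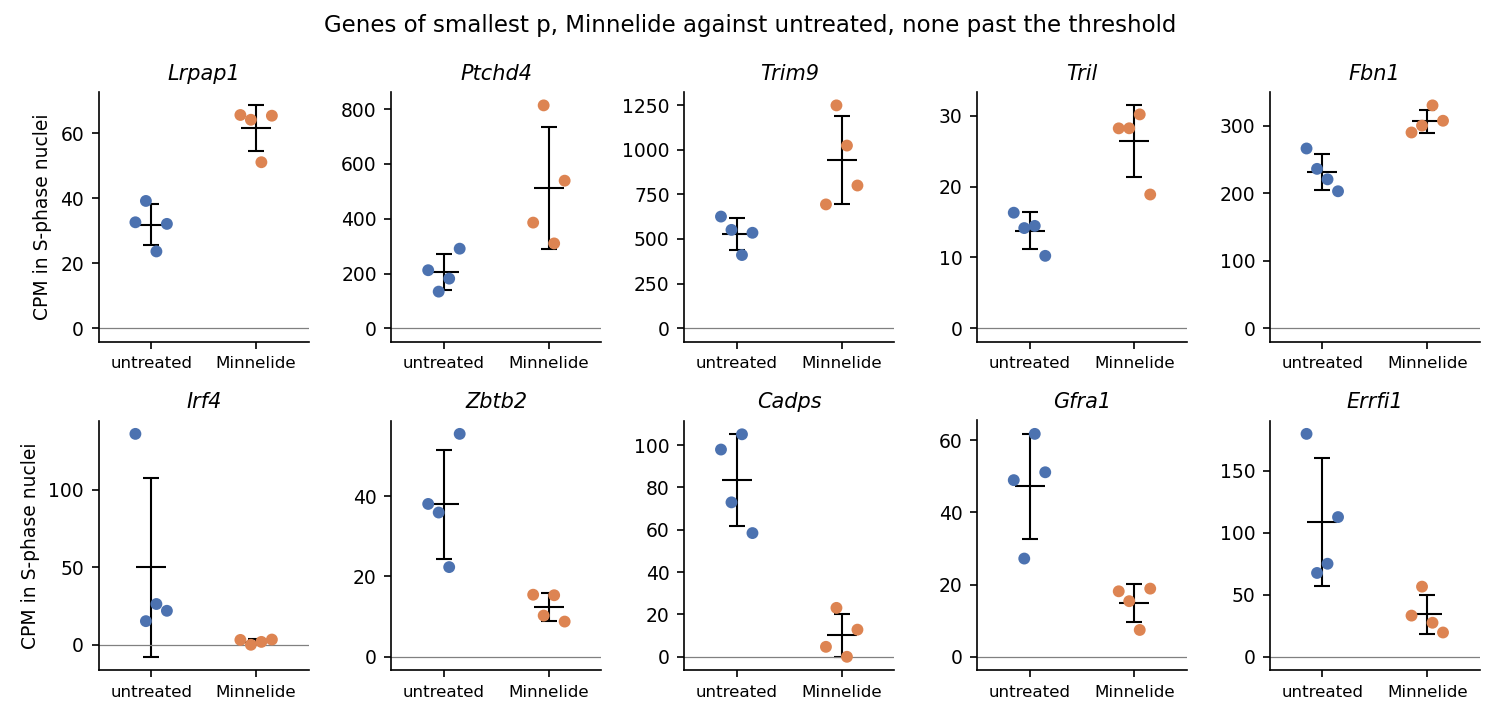
CPM in the S-phase nuclei of each tumor for the 5 genes higher and the 5 genes lower with Minnelide at the smallest p, with 1 point per tumor and the mean ± SD of 4 tumors in black. The groups do not overlap for any of the 10 genes, and 0 of them passed an edgeR adjusted p of 0.05.

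Replication genes differed little between the groups within S-phase nuclei. Every S-phase nucleus of both groups had to reach the same lower limit of S, so genes that move with S were not compared free of the rule. How far the rule held them alike was not tested. The 10 S genes had a median log2 difference of -0.07, the licensing genes of 0.04, the fork genes of -0.09, the nucleotide genes of 0.02 and the chromatin copying genes of 0.05, against 0.01 over all genes tested. At an unadjusted edgeR p under 0.05 stood 0 of 25 fork genes, 2 of 25 licensing genes and 1 of 30 homologous recombination genes. Over all genes tested these were 431 of 8365, and 0 genes of any list were called. Noncycling nuclei were kept by the same rule below the S limit or below 3 detected S genes. In them the same lists had medians of 0.37 (S genes), 0.29, 0.27, 0.26 and 0.31. Without untreated tumor 1 these medians were 0.09, 0.12, 0.04, 0.13 and 0.04.

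Lists of genes outside replication followed. The 10 G genes, held under the G limit, had a median of 0.22, with 10 of 10 above 0, and 0.15 with 8 of 10 above 0 without untreated tumor 1. CIC::DUX4 activity genes outside the rule had a median log2 difference of 0.18 over 11 genes tested, 8 higher and 3 lower, and RNA polymerase II and TFIIH genes one of 0.08 over 13. p53 targets stood at 0.00 over 11 genes. Interferon response genes stood at -0.41, with 0 of 5 genes higher, and at -0.20 with 2 of 6 higher without untreated tumor 1. In noncycling nuclei 0 of 23 interferon genes were higher, with a median of -0.90 (-0.52 without untreated tumor 1), and 0 were called. At an unadjusted edgeR p under 0.05 stood 11 of these 23, against 964 of all 13097 genes tested in noncycling nuclei. Without untreated tumor 1 the counts were 7 of 23 and 939 of 13163. There the endothelial and macrophage markers had medians of -0.78 and -0.99, and of 0.08 and -0.46 without untreated tumor 1. Endothelial and macrophage markers lay in the same direction in the S-phase nuclei, at medians of -0.42 and -0.64, and at 0.12 and -0.51 without untreated tumor 1. Myocyte markers did not, with a median of -0.71 in S-phase and 0.14 in noncycling nuclei. Without untreated tumor 1 these myocyte medians were -0.40 and 0.21. Summed, the endothelial markers took 0.0390% to 0.207% of the UMIs of S-phase nuclei in untreated and 0.0324% to 0.0689% in Minnelide tumors. Their part in the interferon values was not tested.

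Whether the Minnelide effect differed between S-phase and noncycling nuclei was tested with tumor as a block. With edgeR 0 of 13161 genes (0%) passed, 548 had a p under 0.05 before adjustment, and DESeq2 passed 0. The genes of smallest p were Sult5a1 and Vcam1, with a larger log2 effect in S-phase nuclei by 1.40 and 1.09, and the glycolytic kinase Hk2 and the centriole kinase Plk4, with a smaller one by -0.71 and -0.75. The S genes give no answer to this question, since the rule set a lower limit on their sum in S-phase nuclei. Genes that move with S may share that limit, and their medians describe the states as chosen. They were -0.24 for the licensing genes, -0.21 for the fork genes and -0.30 for the homologous recombination genes, and -0.12, -0.12 and -0.11 without untreated tumor 1.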

How the data were processed

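Nuclei from 8 tumors, 4 untreated and 4 treated with Minnelide, were profiled. The study's methods name a 3′ droplet kit with on-chip multiplexing. By the same methods the authors made the UMI counts with Cell Ranger, introns included, against mm39. The deposited counts hold 19059 features, and 18940 were protein-coding genes with a promoter window. Whether the stated kit and intron counting apply to them was not tested. The file headers name version 9.0.1 and the submitters' processing notes name 7.0.1, together with bcl2fastq 2.20. Total counts per tumor ranged from 18487409 to 73211599 UMIs. The labels do not say whether tumors of a group came from separate animals, so p-values measure the spread between these samples.

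S-phase nuclei were chosen from the counts by the limits given above, and the authors' cell annotation was not used here. The members and gene lists were chosen with earlier results of these data known. No doublets were removed. Nuclei were ranked by their Scrublet score in scanpy 1.11.5. The highest were marked, up to an assumed doublet rate of 0.8% per 1000 deposited nuclei of the tumor. The number marked per tumor was thus set beforehand and is no measured rate. Among S-phase nuclei 2.36% to 12.5% per tumor were marked, and their removal was an alternative. Shares and medians per tumor were compared with a two-sided exact permutation test over 70 arrangements (scipy 1.17.1). Counts were summed per tumor and state and fitted with edgeR 4.0.16 (TMM, quasi-likelihood, Benjamini-Hochberg adjustment), with DESeq2 1.42.0 as an alternative. The edgeR script was tested on simulated data. Comparisons between states were ratios per tumor with a pseudocount of 1 CPM and no test. Levels were not corrected for gene length and were not compared between genes.

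Named genes were the 15 furthest above and 10 furthest below noncycling nuclei and the 8 at each end against G2/M, among genes outside the rule with 50 CPM or more in the higher state and 1 direction in every tumor. For Minnelide they were up to 10 called genes per direction or, where under 5 were called, the 5 of smallest p with at least 20 CPM. Listed genes could be named as well, and some genes are not reported here. Of 19059 features 19043 matched GENCODE M39 by gene ID.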

Additional observations from a re-analysis of the deposited data

Results flagged for a closer look

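In 34 groups of 4 tumors the highest and the lowest value were compared with the rest by Dixon's test, which chance passes in about 1 of 20 groups, and 5 values stood apart. Untreated tumor 1 had the lowest cycling share of tumor nuclei, 3.51%, where the rest of its group held 17.9% to 20.2%. Its G2/M share, 2.51%, was also the lowest, against 11.1% to 12.3%. Minnelide tumor 2 had a G2/M share of 6.96% against 16.96% to 18.6% in the other Minnelide tumors. Lrpap1 was at 51.1 CPM in the S-phase nuclei of Minnelide tumor 3, and the other Minnelide tumors held 64.2 to 65.7 CPM. Irf4 was at 136.0 CPM in the S-phase nuclei of untreated tumor 1, which rests on 34 nuclei, and the other untreated tumors held 15.2 to 26.3 CPM.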

How the results depend on the processing

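The S-phase share of tumor nuclei stayed higher with Minnelide and short of the threshold in 17 of 17 alternatives, with differences of 1.07 to 3.87 percentage points when 1 tumor was left out. The S-phase share of cycling nuclei changed direction, to -3.12 percentage points with thinning to 2000 UMIs, -6.19 with at least 2000 UMIs, -0.62 with T of at least 120, -4.41 with S of at least 25, -1.37 with G under 10 and -0.794 without Scrublet doublets, and ranged from -2.17 to 3.70 when 1 tumor was left out. Median UMIs per S-phase nucleus differed by -193.4 with T of at least 120, by -224.4 with at least 2000 UMIs and by -310.5 to 595.8 when 1 tumor was left out. Genes per nucleus differed by 49.62 at full depth. None of these differences passed the exact permutation test in the main setting. The cycling share differed by 4.36 to 12.2 and the G2/M share by 3.29 to 8.28 percentage points when 1 tumor was left out, with both upper values without Minnelide tumor 2 and at the smallest p possible. These last alternatives, and all those of the comparisons between states, were chosen after seeing the data.

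DESeq2 called 1 gene in S-phase and 56 in noncycling nuclei where edgeR called 0, and with S of at least 25 edgeR called 2 genes for the difference of effects, 1 higher and 1 lower. The cause was not tested. Genes lower in S-phase than in noncycling nuclei went from 115 to 32 with T of at least 120, and genes higher than in G2/M nuclei from 39 to 73 with S of at least 25, 31 of them shared. For the 10 genes named in the S-phase comparison under Minnelide, 152 of 152 alternative values kept their direction and 1 (Irf4, DESeq2) passed the threshold. For 8 lists, S-phase over noncycling nuclei, 104 of 104 alternative medians kept theirs, and other lists and those against G2/M were not rerun. Leaving out a tumor could hardly reverse either set. The 10 genes were chosen by p and did not overlap between the groups, and the medians of the 8 lists lay above 0 in every tumor. No paired analysis was possible because the labels give the tumors no numbers shared between the groups. Untreated tumor 1, with 34 S-phase nuclei, and the 3 UMIs that can admit a nucleus limit the depth.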
